A study of Mus musculus with 7 samples.

Results

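The contractile apparatus of smooth muscle was followed through 10 of its genes in C3H10T1/2 cells exposed to purmorphamine or to vehicle. They were chosen by function, with earlier results of these data known, and taken from the table of gene counts by symbol. All 10 (Acta2, Actg2, Tagln, Cnn1, Myl9, Tpm1, Tpm2, Cald1, Myh11 and Lmod1) were found among its 18468 genes. C3H10T1/2 is an established mouse line of mesenchymal character, and purmorphamine is a small-molecule agonist of Smoothened (Smo), the transducer of Hedgehog signals. The comparison asks which transcripts change when endogenous Smo is activated.

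Cells were deprived of serum for 12 h and then received 2 μM purmorphamine (4 libraries, numbered 5 to 8) or 0.02% DMSO as vehicle (3 libraries, numbered 2 to 4) for 48 h, still without serum. All groups share this single cell line and the lack of serum, and the labels limit the cells to 10 passages after purchase. Nothing states that the libraries came from separate cultures on separate days, so that the p-values below measure the spread between these libraries, which may be technical. Each library held 14337225 to 14342154 reads, the authors having resampled them to equal numbers before counting. The treatment took effect in every library: Gli1 rose from between 7 and 12 reads to between 2522 and 3171, and Ptch1 from between 504 and 532 to between 10296 and 11451.

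Smooth muscle contracts when myosin filaments pull on actin filaments. Calcium and calmodulin activate myosin light chain kinase, which phosphorylates the regulatory light chain and so switches the myosin on, while tropomyosin, caldesmon and calponin lie along the actin filament and tune its use. Most genes of this apparatus carry CArG boxes, DNA elements that bind serum response factor (SRF), which acts with myocardin or with the myocardin-related factors that report on the pool of free actin. Fibroblasts and mesenchymal progenitors use part of the same set, in particular α-smooth muscle actin, in stress fibers.

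The promoter sequences are shown first, because SRF sites near the start of transcription are what these genes are best known for. RefSeq promoters (GRCm38.p6, 250 bases before to 50 bases after the start) were at hand for 7 of the 10 genes, in 8 windows. They were searched on both strands for the CArG box (CC, then 6 bases that are each A or T, then GG), for the same box with 1 of the 6 inner bases replaced by G or C, for the core of the Gli site (GGGTGGT) and for the TEAD site (CATTCC). The promoters of Acta2 and Myl9, which fell, and of Tpm1, which did not fall, are given 5′ to 3′ on the strand of the gene, with every match in capitals. Acta2 (chr19:34255324-34255623, minus strand) has boxes with 1 altered base at -84 to -75 and at -34 to -25, a TEAD site at -146 to -141 and a Gli core at 42 to 48. Myl9 (chr2:156775214-156775513, plus strand) has a CArG box at -161 to -152 and a box with 1 altered base at -99 to -90. Tpm1 (chr9:67049164-67049463, minus strand) has a TEAD site at -56 to -51 and no CArG box of either kind.
Acta2: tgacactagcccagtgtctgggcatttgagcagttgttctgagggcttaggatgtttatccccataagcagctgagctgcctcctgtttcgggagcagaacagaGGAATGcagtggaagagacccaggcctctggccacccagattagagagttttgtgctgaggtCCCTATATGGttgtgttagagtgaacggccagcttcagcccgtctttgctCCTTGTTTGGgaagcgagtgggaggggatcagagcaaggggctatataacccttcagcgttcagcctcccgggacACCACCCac
Myl9: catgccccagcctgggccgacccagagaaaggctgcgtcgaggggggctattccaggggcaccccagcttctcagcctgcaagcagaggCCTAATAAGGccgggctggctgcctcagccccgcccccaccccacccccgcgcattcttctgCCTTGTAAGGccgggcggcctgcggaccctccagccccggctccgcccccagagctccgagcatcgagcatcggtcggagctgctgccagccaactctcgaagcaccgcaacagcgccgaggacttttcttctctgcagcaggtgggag
Tpm1: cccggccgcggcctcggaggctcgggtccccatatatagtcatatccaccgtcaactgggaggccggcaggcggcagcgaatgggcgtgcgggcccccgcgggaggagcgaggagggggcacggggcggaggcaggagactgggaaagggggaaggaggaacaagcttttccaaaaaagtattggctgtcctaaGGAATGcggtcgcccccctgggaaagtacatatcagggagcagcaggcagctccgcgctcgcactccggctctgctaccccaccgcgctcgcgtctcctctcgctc

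Of the 7 genes with a promoter, 1 (Myl9) had the CArG box, which 1.63% of all 32851 promoters hold, and 2 (Acta2 and Myl9) had the box with 1 altered base, which 8.5% hold. The TEAD site was found in 4 (Acta2, Tpm1, Cald1 and Lmod1) against 14.7% of all promoters, and the Gli core in 1 (Acta2) against 4.61%. Cnn1 and Tpm2 had none of these in the window. Of the genes that fell, Cnn1, Tpm2 and Lmod1 had no CArG box of either kind. Tpm1 and Cald1, which did not fall, had none either. No promoter was at hand for Actg2, Tagln and Myh11. A match describes the letters and not the binding of a factor, and an element outside the window is not covered.

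**Figure D1:**
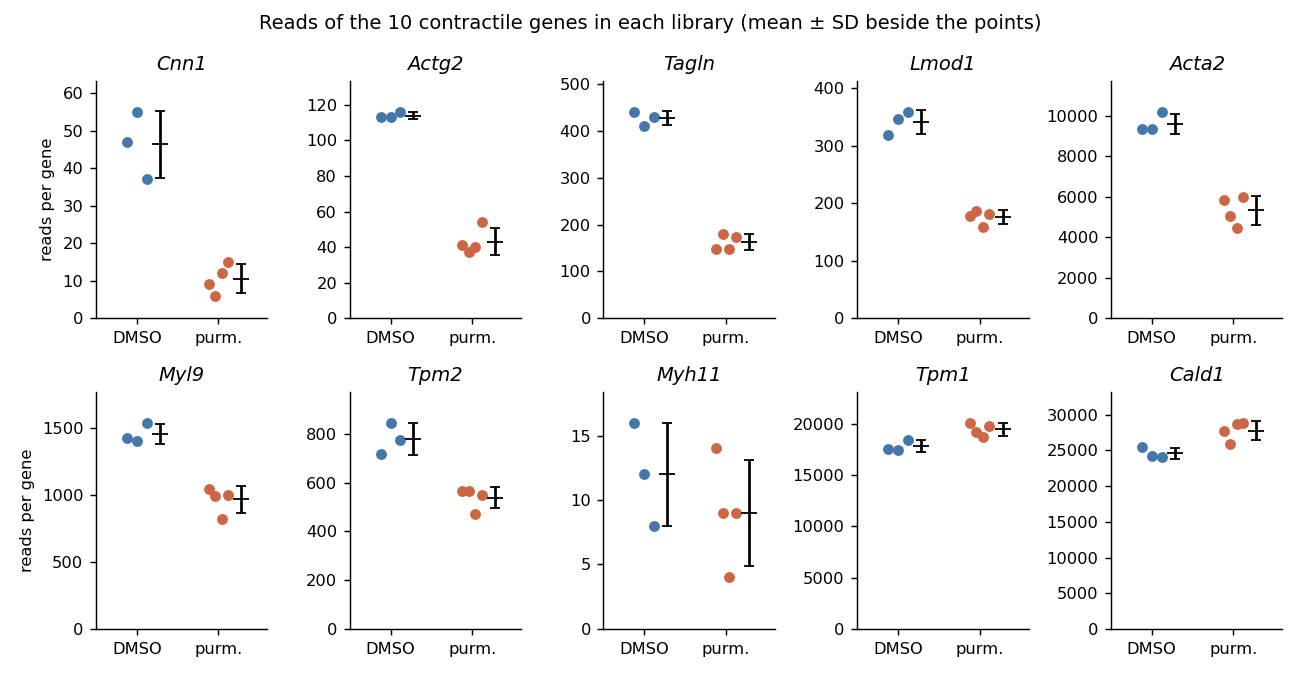
Reads of each of the 10 contractile genes (vertical axis, reads per gene as deposited, from 0) in the 3 DMSO libraries (blue) and the 4 purmorphamine libraries (orange), with the mean ± SD in black, ordered by fold change. In these unscaled reads the groups are apart for every gene but Myh11; Tpm1 and Cald1, the only genes higher with purmorphamine, overlap after TMM scaling.

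With purmorphamine, 7 of the 10 genes fell (Cnn1, Actg2, Tagln, Lmod1, Acta2, Myl9 and Tpm2). Cald1 and Tpm1 were called slightly higher, and Myh11 did not pass the test. All 10 entered the test, edgeR's quasi-likelihood test over 12388 genes with a Benjamini-Hochberg adjusted p under 0.2, the threshold of the study. Over all genes tested, 31.1% were called lower and 31.4% higher, so that being called is common in these data and the 2 small increases do not stand out by their call. A fall of at least 1.5-fold was met by 6 of the 10 genes and by 7.56% of all genes, and a rise of that size by none of the 10 and by 7.89% of all genes. In reads as deposited, every purmorphamine library lay below every DMSO library for 7 of the 10 genes, against 20.4% of all genes, and above for 2, against 29.1%. After the TMM scaling used in the test, it lay below for the same 7, against 25% of all genes, and above for 0, against 24.2%. The median log2 fold change of the 10 was -0.77 and that of all genes tested 0.0038. Since whole cultures were sequenced, fewer cells with a transcript and less of it in each cell cannot be told apart.

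The actins of smooth muscle came first. Acta2, which encodes α-smooth muscle actin (chromosome 19 from 34315380 to 34330026 in mm9, the build of the table), had 9332, 9341 and 10192 reads with DMSO and 5853, 5052, 4438 and 5974 with purmorphamine. The highest purmorphamine library was far below the lowest DMSO library. The means were 9622 ± 494 (SD, n = 3) and 5329 ± 721 (SD, n = 4), a log2 fold change of -0.90 (SE 0.077, edgeR adjusted p = 4.62e-08), or 1.87-fold lower. Actg2, the γ-smooth muscle actin of gut and other visceral muscle (chromosome 6 from 83462699 to 83486459), was counted 113, 113 and 116 times with DMSO and 41, 37, 40 and 54 times with purmorphamine. Its DMSO libraries were nearly level, and its log2 fold change was -1.45 (SE 0.141, edgeR adjusted p = 2.25e-07). Acta2 accounted for 32.8% to 33.4% of the reads of the 5 actin genes in the table (Acta1, Acta2, Actb, Actg1 and Actg2) with DMSO and for 26.2% to 29.1% with purmorphamine.

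Among the genes of proteins that lie on the actin filament, those of transgelin and calponin fell steeply and that of caldesmon did not. Tagln, which encodes transgelin, an early marker of the smooth muscle lineage (chromosome 9 from 45737511 to 45744341), had 441, 412 and 430 reads with DMSO and 149, 181, 147 and 173 with purmorphamine. The log2 fold change was -1.44 (SE 0.085, edgeR adjusted p = 3.71e-10), which is 2.72-fold lower. Cnn1, which encodes basic calponin, an inhibitor of the myosin ATPase typical of differentiated smooth muscle (chromosome 9 from 21903525 to 21914274), had 47, 55 and 37 reads with DMSO and 9, 6, 12 and 15 with purmorphamine. This was the steepest fall of the 10, with a log2 fold change of -2.18 (SE 0.259, 95% interval -2.72 to -1.63, edgeR adjusted p = 2.71e-06). The gene was close to the limit on low counts and passed it through the DMSO libraries. Cald1, which encodes caldesmon (chromosome 6 from 34548300 to 34725673), was the most abundant of the 10 in reads, with 25449, 24177 and 24099 with DMSO and 27659, 25889, 28680 and 28882 with purmorphamine. Its groups were apart in reads as deposited but overlapped after TMM scaling (24518.7 to 25960.6 with DMSO and 25411.1 to 28501.8 with purmorphamine), with a log2 fold change of 0.13 (SE 0.051, edgeR adjusted p = 0.0462).

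The tropomyosins parted. Tropomyosin forms a coiled coil along the groove of the actin filament, and both genes make muscle and non-muscle isoforms from alternative exons. Tpm2 (chromosome 4 from 43527383 to 43536837) had 717, 846 and 774 reads with DMSO and 566, 566, 473 and 550 with purmorphamine, all below the lowest DMSO library. Its log2 fold change was -0.58 (SE 0.071, edgeR adjusted p = 3.92e-06), just short of 1.5-fold. Tpm1 (chromosome 9 from 66870197 to 66897413) had 17558, 17398 and 18443 reads with DMSO and 20087, 19205, 18664 and 19799 with purmorphamine. The lowest purmorphamine library exceeded the highest DMSO library by little in reads as deposited, and the groups overlapped after TMM scaling (17643.9 to 18860.5 with DMSO and 18548.0 to 19807.1 with purmorphamine). The log2 fold change of 0.080 had a 95% interval of -0.018 to 0.18 (adjusted p = 0.172 from edgeR). That call was lost without DMSO replicate 2 (adjusted p = 0.334), DMSO replicate 3 (0.425), purmorphamine replicate 5 (0.299) or purmorphamine replicate 8 (0.237), over a range of 0.0299 to 0.425 in all alternatives. Counts per gene merge the isoforms, so that a shift between muscle and non-muscle forms of Tpm1, Tpm2 or Cald1 would not be seen.

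Of the myosin subunits, only the light chain gene was well expressed. Myl9, which encodes the regulatory light chain that myosin light chain kinase phosphorylates (chromosome 2 from 156600956 to 156607594), had 1420, 1405 and 1538 reads with DMSO and 1047, 992, 823 and 1000 with purmorphamine. The libraries were well apart, and the log2 fold change was -0.64 (SE 0.067, edgeR adjusted p = 5.89e-07), or 1.56-fold lower. Myh11, which encodes the heavy chain particular to mature smooth muscle (chromosome 16 from 14194420 to 14291701), had 16, 12 and 8 reads with DMSO and 14, 9, 4 and 9 with purmorphamine. These overlapped, the log2 fold change was -0.46 and its 95% interval of -1.26 to 0.34 spans a fall of more than 2-fold as well as a rise (adjusted p = 0.344 from edgeR). At this depth no difference could be detected for Myh11. Without DMSO replicate 2 or purmorphamine replicate 7 its log2 fold change was -0.19 or -0.21, and without DMSO replicate 4 it was -0.67.

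Lmod1, which encodes leiomodin, a nucleator of actin filaments in smooth muscle (chromosome 1 from 137221184 to 137264842), had 319, 347 and 359 reads with DMSO and 178, 186, 158 and 182 with purmorphamine. The reads were reduced to about the same extent in each purmorphamine library. The log2 fold change was -1.004 (SE 0.084, edgeR adjusted p = 3.4e-08), or 2.01-fold lower.

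The libraries of a treatment were not alike for these genes. Of the purmorphamine libraries, replicate 7 was the lowest for 7 of the 10 genes (Acta2, Tagln, Myl9, Tpm1, Tpm2, Myh11 and Lmod1) and the highest for none, and replicates 5 and 8 were the lowest for none. Without replicate 7, the log2 fold change was -0.82 for Acta2, -0.57 for Myl9 and -0.52 for Tpm2, and all 7 falling genes kept their call. Summed over the 10 genes, the reads overlapped between treatments (54106 to 55996 with DMSO and 52123 to 56638 with purmorphamine), because Cald1 and Tpm1 made up most of them. Over the other 8 genes the sum was 12405 to 13454 with DMSO and 6095 to 7957 with purmorphamine.

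**Figure D2:**
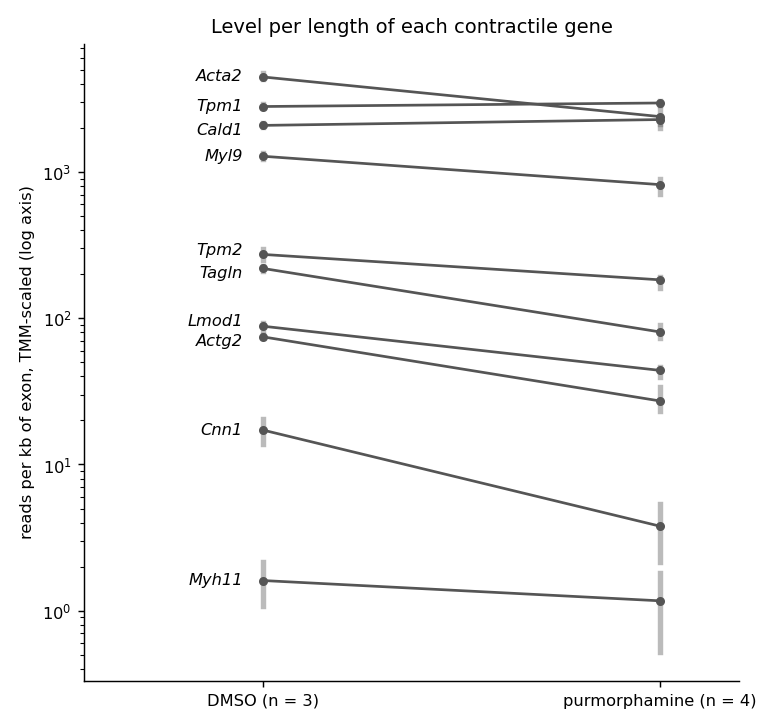
Mean level of each contractile gene with DMSO and with purmorphamine, in TMM-scaled reads per kb of exon on a log axis; the grey bars span the lowest to the highest library. By exon length over all isoforms, Acta2 falls from 4460 to 2390 reads per kb and from the first place to the second. The order of the others does not change.

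Levels were compared between genes per kb of exon, with exon lengths from GENCODE M21 over all isoforms and reads scaled with TMM factors. The length joins the exons of all isoforms, 2196 bases for Acta2, 6485 for Tpm1 and 12041 for Cald1. The places of these genes depend on that divisor, since in reads alone Cald1 and Tpm1 exceeded Acta2 in both groups. With DMSO the order was Acta2 (4460 ± 244 reads per kb, SD, n = 3), Tpm1 (2800 ± 98.6), Cald1 (2080 ± 66.3), Myl9 (1280 ± 68.4), Tpm2 (273 ± 21.8), Tagln (219 ± 8.24), Lmod1 (88.2 ± 5.35), Actg2 (74.6 ± 1.39), Cnn1 (17.2 ± 3.29) and Myh11 (1.61 ± 0.536). No neighbours in this order overlapped between libraries. With purmorphamine Tpm1 came first (2960 ± 88.5 reads per kb, SD, n = 4), and Acta2 (2390 ± 317) and Cald1 (2280 ± 119) followed with overlapping ranges. The remaining 7 genes kept their places, from Myl9 at 819 reads per kb (704 to 888 over the libraries) to Cnn1 at 3.79 ± 1.40 and Myh11 at 1.17 ± 0.528. Thus the set ran from one of the most abundant transcripts of these cells to one at the edge of detection: Acta2 lay above 99.4% and Myh11 above 1.12% of the genes tested, per kb, with DMSO.

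The size of the change followed a different order. Consecutive genes by log2 fold change were compared through the ratio of their reads in each library. The ranges of that ratio were apart between treatments for Cnn1 and Actg2, for Tagln and Lmod1 and for Acta2 and Myl9. They overlapped for Actg2 and Tagln, for Lmod1 and Acta2, for Myl9 and Tpm2, and for all pairs beyond Tpm2. The order was set from the same values, so that this is a description without a test.

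**Figure D3:**
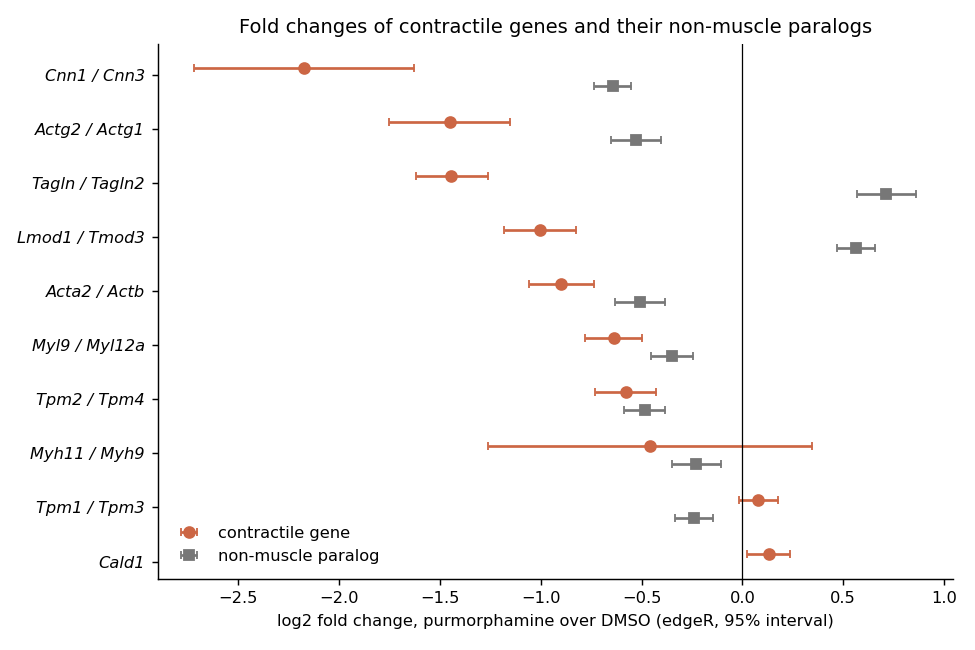
Log2 fold changes from edgeR, purmorphamine over DMSO, with 95% intervals, for the 10 contractile genes (orange circles) and for the non-muscle paralog paired with 9 of them (grey squares). Cnn1 lies farthest to the left at -2.18, and Tagln2 and Tmod3 lie on the other side of 0 from Tagln and Lmod1.

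Most contractile genes have a paralog that serves the cytoskeleton of all cells, and 9 pairs were compared by the ratio of their reads within each library, after 1 was added to each count. All 35 ways of splitting the libraries into 3 and 4 were run through in an exact permutation test, two-sided, with p = 0.0286 as the smallest value it can give, and p-values were also adjusted over the 9 pairs. The ratio fell in every purmorphamine library for 6 pairs, rose for 1 and overlapped for 2. Tagln fell most against its paralog, since Tagln2 (1147, 1185 and 1152 reads with DMSO and 2158, 2094, 1662 and 1964 with purmorphamine) rose. The log2 ratio of Tagln to Tagln2 went from -1.44 ± 0.075 (SD, n = 3) to -3.59 ± 0.172 (SD, n = 4), a ratio of 22.5% of that with DMSO (exact permutation p = 0.0286, adjusted 0.0367). Lmod1 fell likewise against Tmod3, a tropomodulin that caps actin filaments and that rose from between 5614 and 5845 to between 8582 and 8957 reads. The ratio of Lmod1 to Tmod3 was left at 33.8% (exact permutation p = 0.0286, adjusted 0.0367). For these 2 pairs the contractile gene was called lower and its paralog higher.

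In the other 7 pairs the paralog was called lower. The ratio of Cnn1 to Cnn3 was left at 35.5%, that of Actg2 to Actg1 at 53.0%, that of Acta2 to Actb at 75.9% and that of Myl9 to Myl12a at 81.6%, each with an exact permutation p of 0.0286 and 0.0367 after adjustment. Actb itself, the β-actin of the cytoskeleton, had a log2 fold change of -0.51 (SE 0.059, edgeR adjusted p = 1.85e-06), going from 14882, 15165 and 16103 reads with DMSO to 11881, 11308, 9829 and 11713. Acta2 therefore fell further than Actb, by 0.40 on the log2 scale. Tpm1, called higher by little, and Tpm3, called lower, went in opposite directions, and their ratio rose to 125% of that with DMSO (exact permutation p = 0.0286, adjusted 0.0367). The ratio of Tpm2 to Tpm4 overlapped between treatments (difference in log2 ratio -0.093, exact permutation p = 0.457, adjusted 0.514), as did that of Myh11 to Myh9 (-0.25, exact permutation p = 0.571, adjusted 0.571). Cald1 has no paralog in this comparison.

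**Figure D4:**
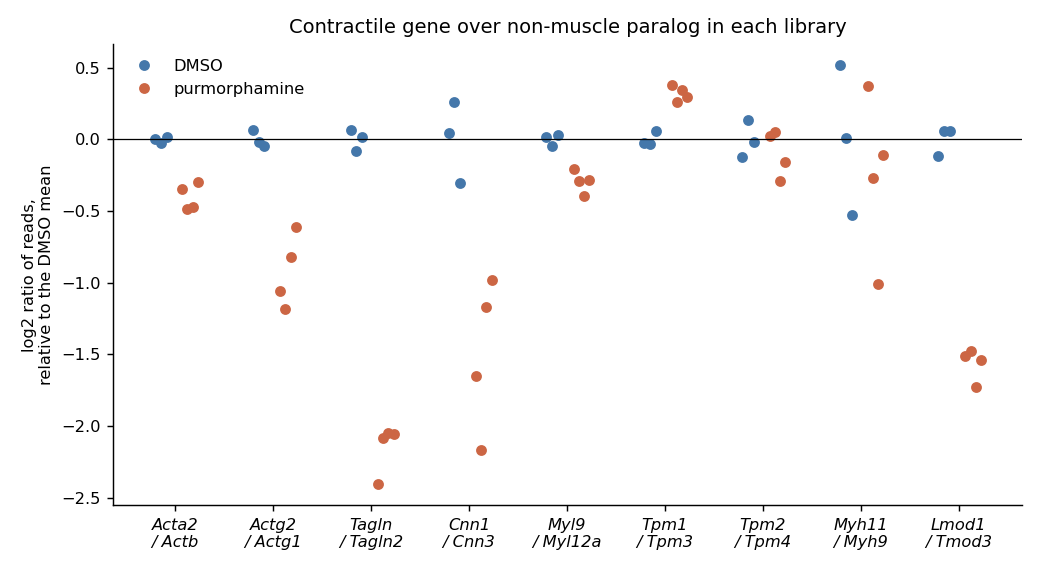
Log2 ratio of the reads of each contractile gene to those of its non-muscle paralog, in each DMSO library (blue) and purmorphamine library (orange), set against the mean of the DMSO libraries at 0. For Tagln and Lmod1 all purmorphamine libraries lie more than 1 log2 unit below 0, and for Tpm2 and Myh11 the treatments overlap.

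These gene families are close in sequence, and how reads that match several genes were counted is not given in the sources used here. Of all windows of 100 bases, the read length, in the GENCODE M21 transcripts of the 10 contractile genes, 0 were found in a transcript of another gene. Of the paralogs, Actg1 shared 29.9% of its windows, Tpm3 15.8%, Myl12a 13.1% with Myl12b and Tpm4 7.37%, so that the reads of these 4 paralogs are less certain than those of the contractile genes.

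**Figure D5:**
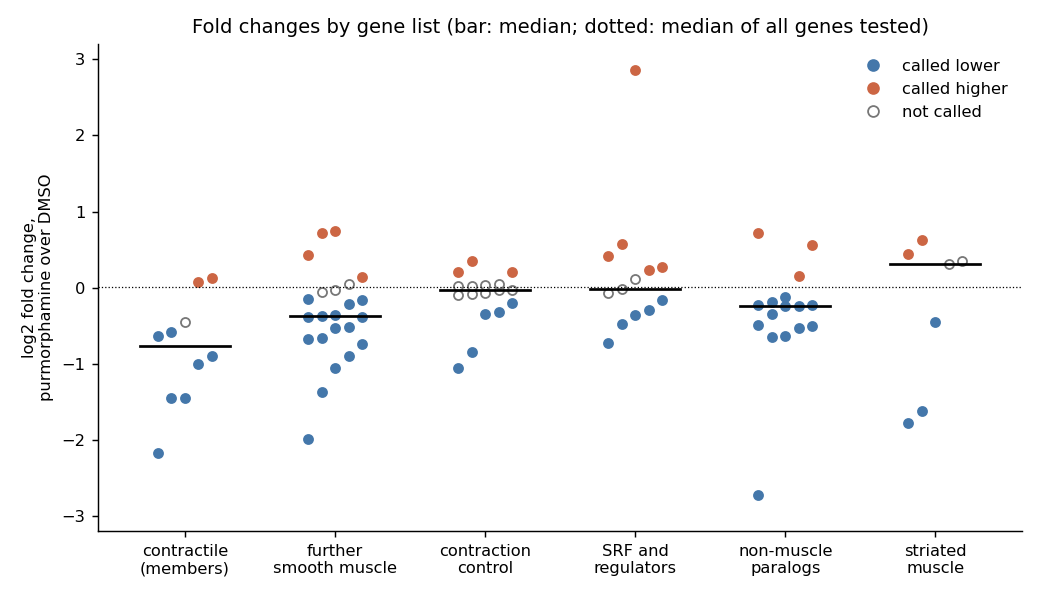
Log2 fold changes from edgeR, purmorphamine over DMSO, of the tested genes of 6 lists; blue points were called lower, orange points higher and open points were not called, with the median of each list as a bar and that of all genes tested as a dotted line. The contractile genes have the lowest median (-0.77), and Klf4 stands alone at 2.86 among SRF and its regulators.

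Further genes of smooth muscle were taken from a list of 27, of which 23 could be tested. Of these, 16 were called lower and 4 higher, against 31.1% and 31.4% of all genes tested, with a median log2 fold change of -0.37. By at least 1.5-fold, 7 fell and 2 rose, against 7.56% and 7.89% of all genes tested. Mylk, which encodes myosin light chain kinase, the enzyme that switches on the product of Myl9, went from 608, 615 and 566 reads with DMSO to 291, 314, 278 and 299, a log2 fold change of -1.06 (SE 0.067, edgeR adjusted p = 8.43e-10). Itga8, the integrin α8 chain of smooth muscle and other contractile stroma, went from 300, 302 and 297 to 114, 120, 120 and 123 reads (log2 fold change -1.38, adjusted p = 5.74e-10 from edgeR). Aoc3, an amine oxidase of smooth muscle and of adipocytes, had the largest fall of the list, from between 1852 and 2161 to between 498 and 562 reads (log2 fold change -1.99, adjusted p = 1.1e-13 from edgeR). Ldb3, a protein of contractile anchor sites, fell by 0.67 on the log2 scale.

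Other genes of the list moved either way. Palld (palladin, which bundles actin) fell by 0.66, Vcl (vinculin) by 0.52, Flna (filamin A) by 0.37 and Smtn (smoothelin) by 0.36 on the log2 scale. The groups of each did not overlap. Groups apart in that direction were common, at 20.4% of all genes tested in reads as deposited and 25% after TMM scaling. Synm, the intermediate filament protein synemin, rose by 0.42 on the log2 scale. Cacna1c, the pore of the L-type calcium channel, rose by 0.74 on the log2 scale and Fhl1, a LIM-domain protein of muscle, by 0.71, so that the list as a whole did not move in 1 direction. Des, which encodes the muscle filament desmin, had at most 6 reads in a library and was not tested.

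Genes that set contraction by phosphorylation were taken from a list that has Mylk in common with the former. Of 17 tested, 5 were called lower, 3 higher and 9 were not called, and their median was -0.028 on the log2 scale. Over all genes, 31.1% were called lower and 31.4% higher. The 3 called higher rose by 0.20 to 0.35 on the log2 scale, among them Ppp1r12c, a targeting subunit of myosin phosphatase, by 0.20. Ppp1r12b, another such subunit, fell by 0.32 on the log2 scale. Prkg1, the cGMP-dependent kinase that relaxes smooth muscle, fell from between 15 and 18 to between 5 and 14 reads (adjusted p = 0.0357 from edgeR). It was close to the limit on low counts and passed it through the DMSO libraries.

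SRF and the factors that work with or against it showed 5 genes called lower and 5 called higher of 13 tested. Over all genes tested these shares were 31.1% and 31.4%. The median log2 fold change of the list was -0.018. Srf itself went from 411, 445 and 397 reads with DMSO to 371, 414, 346 and 411 with purmorphamine; the libraries overlapped, and it was called lower at a log2 fold change of -0.16 (adjusted p = 0.0913 from edgeR). Myocd, which encodes myocardin, the coactivator that drives SRF in mature smooth muscle, had at most 2 reads in any library of either group and was not tested. The myocardin-related factors were both expressed: Mkl1 had 284 to 289 reads with DMSO and 303 to 335 with purmorphamine (log2 fold change 0.11, adjusted p = 0.22 from edgeR, not called), and Mkl2 rose by 0.27 on the log2 scale. Tead1, which binds the TEAD site, fell by 0.29, and Foxo4, a forkhead factor described as a repressor of smooth muscle genes, rose by 0.57 on the log2 scale. Klf4, a Kruppel-like factor known from the loss of the contractile state in smooth muscle, rose from 654, 650 and 657 to 4762, 4913, 4986 and 4950 reads, a log2 fold change of 2.86 (SE 0.050, edgeR adjusted p = 1.43e-16). Whether any of these factors bears on the contractile genes was not tested.

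Non-muscle cytoskeletal genes fell with the contractile genes. Of 16 tested, 13 were called lower and 3 higher, against 31.1% and 31.4% of all genes tested. Their median log2 fold change was -0.24. A fall of at least 1.5-fold was met by 3 of the 16 (Cnn3, Myh10 and Myh14) and by 7.56% of all genes tested. Myh10, a non-muscle myosin heavy chain, went from between 6715 and 6816 to between 4342 and 4643 reads, and Cnn3, an acidic calponin, from between 8895 and 8970 to between 5583 and 6024. Myh14 fell from between 50 and 65 to between 6 and 12 reads, and it passed the limit on low counts through the DMSO libraries. The medians of both lists lay below that of all genes tested, the contractile one farther. Both lists were chosen with results of these data known, so that nothing is called particular to either.

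The labelled cell type was checked against its markers. All 11 mesenchymal markers on the list were tested and abundant, with 369132 to 389536 reads in all with DMSO and 355987 to 386098 with purmorphamine. Of these, 6 were called higher and 2 lower, against 31.4% and 31.1% of all genes tested. Vim (vimentin) fell from between 79220 and 81440 to between 41359 and 43378 reads, and Pdgfra, Thy1, Cd44 and Twist1 rose by between 0.65 and 0.76 on the log2 scale. Mature smooth muscle is not the labelled type. Of its genes, Myh11 had at most 16 reads, Des at most 6 and Myocd at most 2 in any library. Others were expressed with DMSO, among them Mylk (566 to 615 reads), Smtn (427 to 451), Lmod1 (319 to 359) and Cnn1 (37 to 55).

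Markers of other cell types moved in part with the treatment. Of 7 endothelial markers, Tek rose from between 770 and 816 to between 1870 and 2124 reads and Cdh5 from 0 in each DMSO library, which allows up to 3 reads, to between 21 and 26, while the others had at most 5 reads in a library or no row in the table. The summed endothelial reads were 781 to 821 with DMSO and 1898 to 2154 with purmorphamine. Of 6 epithelial markers, Cdh1 rose from between 14 and 21 to between 110 and 135 reads and the others had at most 1 read or no row; their sum was 14 to 23 with DMSO and 111 to 136 with purmorphamine. Of 5 pericyte markers, Rgs5 fell from between 28 and 37 to between 14 and 25 reads, whereas Cspg4 rose from between 863 and 983 to between 1191 and 1394 and Notch3 from between 115 and 127 to between 128 and 204. The other two had at most 6 reads in a library, and the pericyte sum was 1022 to 1135 with DMSO and 1343 to 1573 with purmorphamine. The 7 leukocyte markers summed to 69 to 72 reads with DMSO and 45 to 64 with purmorphamine, nearly all from Cd14, and those of skeletal myoblasts to at most 6 reads. The part of these genes in the fall of the contractile genes was not tested.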

How the data were processed

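Stranded total RNA, depleted of ribosomal RNA, was sequenced to single reads of 100 bases. According to the study's methods the authors resampled reads to equal numbers per library and quantified genes. The deposited values are whole-number counts of sense reads per gene, 14337225 to 14342154 per library, and resampling to 1 depth hides differences in the original depth. The submitters' processing notes name STAR 2.5.3a and mm9. The annotation and the treatment of reads shared by genes are not given in the sources used here.

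Counts as deposited were tested in R 4.3.3 with edgeR 4.0.16 (quasi-likelihood test, TMM scaling, both groups in a single fit, no covariate) on 12388 of 18468 genes that passed a filter on low counts (filterByExpr, at least 10 counts with a total of at least 15). An adjusted p under 0.2 was used, with 1.5-fold as a second limit. Alternatives were library totals or median-ratio size factors for scaling within edgeR, DESeq2 1.42.0, limma-voom (limma 3.58.1), other filters and thresholds, and leaving out each library. Exon lengths matched 12103 of the 12388 genes.

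The members and lists were chosen with earlier results of these data known. Named were all members, both genes of each pair, Gli1, Ptch1 and, from each other list, at most 6 genes called with a change of at least 1.5-fold and a mean of at least 50 reads. Srf, Myocd, Mkl1, Mkl2, Tead1, Foxo4, Vcl, Flna, Smtn, Ppp1r12b, Prkg1, Des, Cdh5, Rgs5, Tnnt1, Tnnt3, Actn3, Cd14, Palld, Synm, Cspg4, Notch3, Ppp1r12c and Myh14 were named after their values were seen. The box with 1 altered base, the search for shared windows and the overlap of groups after TMM scaling were added after seeing the data. Protein sequences were not used here. Results for some listed genes are not reported here.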

Additional observations from a re-analysis of the deposited data

Results flagged for a closer look

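Among groups of 4 purmorphamine libraries, 61 sets of values were examined for a library that stood apart by Dixon's criterion, and 4 met it, where chance gives about 1 in 20, or 3.05. The gap of the extreme library to its nearest neighbor, as a share of the whole range, was 0.932 for Cnn3, 0.957 for Myl12a, 0.902 for Tead1 and 0.903 for the ratio of Tagln to Tagln2. After TMM scaling, Cnn3 had 5922, 5900, 5548 and 5926 reads in purmorphamine replicates 5 to 8, Myl12a had 5476, 5484, 4956 and 5499, and Tead1 had 1963, 1945, 2127 and 1953. Replicate 7 was the one apart in these 3 genes, low for Cnn3 and Myl12a and high for Tead1. It was also the lowest of its group for 7 of the 10 contractile genes.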

How the results depend on the processing

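The number of contractile genes called lower was 7 under every alternative but a filter of at least 10 counts in every library, under which Cnn1 and Myh11 could not be tested, and the 1.5-fold limit, which Tpm2 missed; both gave 6. The number called higher was 1 to 2 when each library was left out in turn, 1 at an adjusted p under 0.05 and 0 with a change of at least 1.5-fold (2 with edgeR without that limit, 1 at an unadjusted p under 0.05 with edgeR and 1 with DESeq2). With the 1.5-fold limit, the further smooth muscle genes gave 2 higher and 7 lower, and SRF and its regulators 1 and 1. The genes of contraction control gave 0 and 2, the non-muscle paralogs 1 and 3, and striated muscle genes 1 and 2. Over all genes tested, 7.89% were called higher and 7.56% lower with that limit. Striated muscle genes called higher numbered 2 in edgeR, 0 in DESeq2 (0 at an unadjusted p under 0.05 in both tools), 1 in limma-voom, 0 with no filter, 1 with at least 10 counts in every library, 0 at an adjusted p under 0.05, and 0 to 2 when each library was left out, being 0 without DMSO replicate 2 or purmorphamine replicate 6; the cause was not tested. No result changed direction among those called. Myh11 was not called in any alternative in which it was tested. At this depth Myh11, with at most 16 reads in a library, had a wide interval, and Myocd and Des were not tested. No paired analysis was possible because DMSO libraries carry numbers 2 to 4 and purmorphamine libraries 5 to 8.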

Other observations

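Most listed genes of striated muscle were nearly silent in these cells, having no row or fewer than 10 reads in every library. Of 35 on the list, 7 could be tested, and the summed reads were 248 to 277 with DMSO and 169 to 204 with purmorphamine. Of the tested genes 3 were called lower and 2 higher, against 31.1% and 31.4% of all genes tested. Tnni1, the slow skeletal troponin I, went from 89, 111 and 115 reads with DMSO to 38, 33, 28 and 27 with purmorphamine (log2 fold change -1.78, adjusted p = 8.24e-08 from edgeR), and the groups were well apart. Tnnt1, the slow skeletal troponin T, went from 22, 24 and 26 to 10, 6, 9 and 7 reads (log2 fold change -1.62, adjusted p = 9.65e-05 from edgeR). It passed the limit on low counts through the DMSO libraries. The genes called higher, Tnnt3 and Actn3, had overlapping libraries and at most 38 reads in any of them. Tnnt3 passed the limit on low counts through the purmorphamine libraries.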
